A study of Mus musculus with 6 samples.

Results

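The members described here are 10 genes of transforming growth factor beta (TGF-beta) signalling, of the 21878 genes counted in mouse thyroid glands. They are the ligand genes Tgfb1, Tgfb2 and Tgfb3, the latent binding protein gene Ltbp1, the receptor genes Tgfbr1, Tgfbr2 and Tgfbr3, and the inhibitor genes Vasn (vasorin), Smad7 and Bambi. They were chosen by name, and the choice was made with results of these data known. Vasn was chosen on its fall in the same comparison, where it was 1 of the 16 genes with an adjusted p under 0.05, so its difference is given as a description with no test. The other 9 were taken in as the family around it. RNA was sequenced from whole thyroids of 6 untreated female mice at 12 weeks of age. Of these, 3 were wild-type (Thy-Tet1+/+) and 3 were labelled thyroid-specific Tet1 knockouts (Thy-Tet1-/-), called the libraries labelled knockout from here on because Tet1 itself went against that label. The knockout was bred from mice with a floxed Tet1 allele and mice with a Cre recombinase driven in thyroid follicular cells, and the controls were wild-type littermates. Other cells of the gland thus keep Tet1 by design, and in whole-gland RNA fewer cells of a type and less RNA per cell cannot be told apart.

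TGF-beta is a secreted growth factor family that restrains the division of epithelial cells and drives matrix production by stromal cells. The ligands leave the cell in a latent complex, which latent binding proteins such as LTBP1 tie to the matrix. Once released, a ligand binds TGFBR2, which recruits and phosphorylates TGFBR1, the kinase that passes the signal to SMAD2 and SMAD3, while TGFBR3 (betaglycan) presents ligand at the cell surface. Vasorin is a membrane protein with leucine-rich repeats, known from vascular smooth muscle, that binds TGF-beta and damps its signal. SMAD7 blocks the receptor inside the cell and BAMBI is a decoy receptor without a kinase. In the thyroid, TGF-beta is known as a brake on follicular cell growth.

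The level of Vasn was 2.95-fold lower in the libraries labelled knockout, and its mean level per kilobase went from rank 1 of the 10, where its range overlapped that of Tgfbr3, to rank 5 (rank 6 by the longest transcript). Among the other 9 members, Tgfb2 was the only one past the limits used here (a change of more than 1.5-fold with an unadjusted p under 0.05), higher in the libraries labelled knockout, and that call was lost when any 1 library was left out. With the main scaling, Tgfbr1 and Ltbp1 were lower in all 3 libraries labelled knockout than in all 3 Thy-Tet1+/+ libraries. Their fold changes were too small for the limits. Tgfb1, Tgfb3, Tgfbr2, Tgfbr3, Smad7 and Bambi had overlapping groups with that scaling, and 26.8% of all tested genes had groups without overlap. With total counts alone the groups of Tgfbr1 and Ltbp1 overlapped. Among 20 target genes of the pathway, 6 were past the limits (30.0%, beside 9.20% of all tested genes). By edgeR 0 had an adjusted p under 0.05, and 7 (35.0%) were under 0.05 before adjustment, beside 18.9% of all tested genes. This list was also chosen with earlier results of these data known, so its share is given as a description. Of the 6, 3 were lower, among them Cdkn1a and Fn1, while Junb, Snai1 and Snai2 were higher, the last 2 of which kept their calls in 10 and 9 of 15 alternatives.

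The promoter windows of the members that differed furthest in each direction, Vasn downwards and Tgfb2 upwards, are shown because TET1 is an enzyme that oxidizes methylated cytosines, which in mammals lie mostly in CpG pairs. Each sequence is the reference genome of the mouse from RefSeq (GRCm38.p6), read 5′ to 3′ along the gene from 250 bases before its start to 50 bases after it, with every CpG in capitals. The Vasn window is chr16:4639695-4639994 on the plus strand, and the Tgfb2 window is chr1:186705940-186706239 on the minus strand. Methylation was not measured in these libraries.
Vasn: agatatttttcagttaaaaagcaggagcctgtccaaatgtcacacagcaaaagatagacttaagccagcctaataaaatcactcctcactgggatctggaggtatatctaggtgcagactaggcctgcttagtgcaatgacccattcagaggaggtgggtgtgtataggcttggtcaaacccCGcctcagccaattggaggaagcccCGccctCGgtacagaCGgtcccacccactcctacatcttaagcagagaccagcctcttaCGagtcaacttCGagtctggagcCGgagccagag
Tgfb2: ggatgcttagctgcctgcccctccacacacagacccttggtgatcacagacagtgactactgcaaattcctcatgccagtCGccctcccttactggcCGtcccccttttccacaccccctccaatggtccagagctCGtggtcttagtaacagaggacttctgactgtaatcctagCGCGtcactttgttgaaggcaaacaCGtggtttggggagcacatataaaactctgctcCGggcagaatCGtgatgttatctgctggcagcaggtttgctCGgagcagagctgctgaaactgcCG

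The Vasn window holds 7 CpG pairs, and the 32851 windows of 300 bases in the RefSeq table had a median of 7.0. The GC content of the Vasn window is 51.0%, against a median of 52.7% over all windows. Among the 6 members with a window in that table, the CpG-rich ones are Tgfbr1, whose upstream window has 34 CpG pairs, more than or equal to 93.0% of all windows, and Tgfb1, with 30. The Tgfb2 window has 10 CpG pairs, that of Tgfbr2 has 15, and the windows of the 2 starts of Ltbp1 have 17 and 7. The motif CAGAC, which holds the core letters bound by SMAD proteins, was searched on both strands. It is present 3 times in the Vasn window, 2 times in the Tgfb2 window and 0 times in the Tgfb1 window, and 49.6% of all windows hold it at least once. The core promoter motif TATAAA, searched in the same way, is in the Tgfb2 window and in no other member window, and 13.6% of all windows hold it. The GC box GGGCGG, on either strand, is in the windows of Tgfb1 (6 matches), Tgfbr1 (2 matches, upstream start) and Vasn (1 match), and in 35.7% of all windows. These matches are descriptions of the letters and not sites of binding.

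Vasn (NCBI gene 246154) lies at chr16:4639941-4650802 on the plus strand of GRCm38 in the GENCODE M21 annotation, wholly inside the longer gene Coro7, which runs on the minus strand, and shares no exon base with it. Its main transcript has 2 exons of 208 and 2621 bases, and the coding sequence of 2019 bases lies in the second. The gene Dnaja3 is annotated on the same strand as Vasn at chr16:4639989-4707695, and so spans most of Vasn. A transcript of Dnaja3 has 160 exon bases inside the first exon of Vasn, which is 5.32% of the exon bases of Vasn.

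Total counts per library ranged from 8867683 to 19950898, and 3 counts, taken as the smallest level that can be told from 0, corresponded to 0.150 to 0.338 CPM (counts scaled to the library total), for counting error only. Tet1 itself went against the label: it had 3.44 to 5.70 CPM in Thy-Tet1+/+ and 9.37 to 12.2 CPM in the libraries labelled knockout, a log2 fold change of 1.28, and reads on its separate exons were not analysed here. The markers fitted thyroid in every library, with 193900 to 316800 CPM summed over 9 follicular cell genes. This sum was the only one of 11 marker lists without overlap between groups. It was at 256700 to 316800 CPM in Thy-Tet1+/+ and 193900 to 239700 CPM in the libraries labelled knockout. Nearly all of the sum was 1 gene, Tg, at 252700 to 313700 CPM and 190900 to 236500 CPM. The mean log2 CPM of the 9 genes overlapped between groups, at 7.99 to 8.15 and 7.90 to 8.05. In each direction 1 gene of the list was past the limits. Skeletal muscle genes summed to 5342, 654 and 3205 CPM in Thy-Tet1+/+ and 93.2, 6055 and 15.2 CPM in the libraries labelled knockout. Parathyroid genes summed to between 89.2 and 12920 CPM. Adipocyte genes summed to 222, 50.6 and 24.1 CPM in Thy-Tet1+/+ and 681, 278 and 97.0 CPM in the libraries labelled knockout, and 2 of the 5, Ucp1 and Lep, were higher past the limits (named after their values were seen). Lymphocyte and thymocyte genes summed to 563 CPM in Thy-Tet1-/- replicate 3 and to 11.3 to 142 CPM elsewhere. Of the fibroblast markers 1 of 6 was higher past the limits, and of the macrophage and the Schwann cell markers 1 of 5 each was lower. These counts of markers stand beside 9.20% of all tested genes past the same limits. The part of these cells in the levels of the members was not tested. None of the marker genes was at 0 in all libraries. The deposited protocol text speaks of retinas, while the stated tissue of every library is thyroid.

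Vasn had 562, 1301 and 990 counts in Thy-Tet1+/+ and 455, 352 and 377 counts in the libraries labelled knockout. Scaled by the trimmed mean of M-values (TMM), these were 66.7, 69.6 and 54.9 CPM against 24.8, 20.9 and 19.2 CPM. All 3 libraries labelled knockout were low, and the highest of them lay far under the lowest Thy-Tet1+/+ library. The means were 63.7 ± 7.76 CPM (SD, n = 3) and 21.6 ± 2.89 CPM (SD, n = 3), so that Vasn was at 33.9% of its Thy-Tet1+/+ level (2.95-fold lower, log2 fold change -1.56, standard error 0.15).

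**Figure D1:**
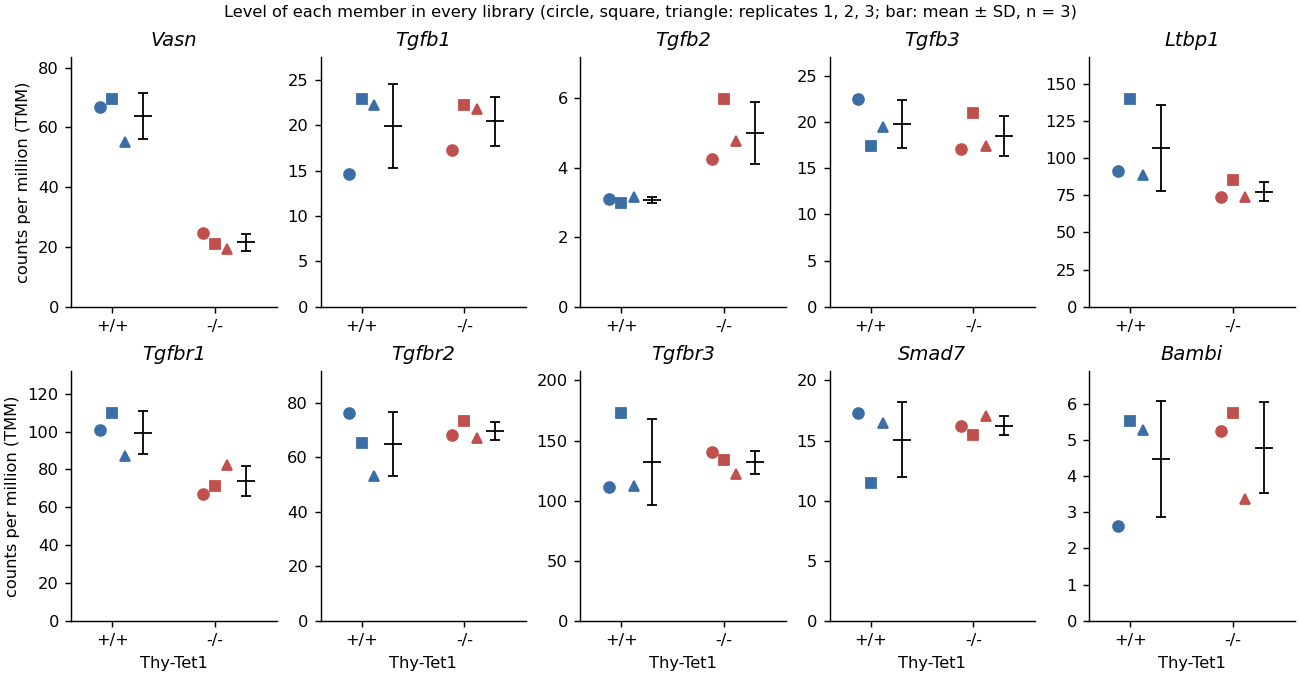
Level of each of the 10 members in CPM (TMM scaling, vertical axes from 0) in the 3 Thy-Tet1+/+ libraries (blue) and the 3 libraries labelled knockout (red), with the replicates as circle, square and triangle and the mean ± SD beside them. Vasn falls from 63.7 to 21.6, Tgfb2 is higher and Tgfbr1 and Ltbp1 are lower in every library labelled knockout, and the groups of the other 6 members overlap.

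Neither of the genes that overlap Vasn in the genome was past the limits described further on. Coro7, which encloses Vasn and encodes a coronin of the actin and Golgi machinery, was at 17.9, 23.7 and 18.9 CPM in Thy-Tet1+/+ and 17.9, 17.4 and 25.2 CPM in the libraries labelled knockout. Its groups overlapped and its means were both 20.2 CPM (log2 fold change -0.001, 95% interval -0.47 to 0.47). Dnaja3, a mitochondrial co-chaperone, was at 76.2 ± 12.5 CPM (SD, n = 3) and 58.2 ± 10.3 CPM (SD, n = 3), with overlapping groups and a log2 fold change of -0.39 (95% interval -0.82 to 0.04).

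Ratios of counts within a library do not depend on how libraries are scaled. Vasn was chosen on its fall in these libraries, so its ratio to a gene that changed little is apart by that choice. The ratios are given as descriptions. There were 0.629 to 0.662 Vasn reads per Tgfbr1 read in Thy-Tet1+/+ and 0.232 to 0.369 in the libraries labelled knockout. Per read of Tgfb1, the ligand gene with most reads in 5 of the 6 libraries, there were 2.47 to 4.57 and 0.881 to 1.43 Vasn reads. The groups were also apart for Vasn over Tgfbr2 (0.874 to 1.07 and 0.285 to 0.364), over the fibroblast marker Dcn (0.179 to 0.236 and 0.0432 to 0.0573) and over the endothelial marker Pecam1 (0.368 to 0.488 and 0.116 to 0.154). Dcn was itself higher without overlap (means of 310 CPM in Thy-Tet1+/+ and 440 CPM in the libraries labelled knockout), which widens the gap of its ratio. Only over Myh11, the smooth muscle myosin heavy chain, did the groups overlap among the ratios plotted, at 0.42 to 0.927 and 0.258 to 0.494. The 8 smooth muscle and pericyte markers summed to 1080, 559 and 573 CPM in Thy-Tet1+/+ and 601, 892 and 488 CPM in the libraries labelled knockout, with overlapping groups. None of the 8 was lower past the limits, and 1, the pericyte receptor gene Pdgfrb, was higher (160% of its Thy-Tet1+/+ level), beside 9.20% of all tested genes past the limits. Named after their values were seen, Cnn1 was lower (56.29%) and Notch3 higher (149.9%), both without overlap between groups. With overlap, Myh11 (64.21%) and Mylk (74.85%) were lower and Cspg4 (150.2%) was higher. The sum includes Des, at 185.1, 32.25 and 116.5 CPM in Thy-Tet1+/+. In the libraries labelled knockout Des was at 17.7, 306.7 and 10.01 CPM. The part of smooth muscle cells and pericytes in the level of Vasn was not tested.

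**Figure D2:**
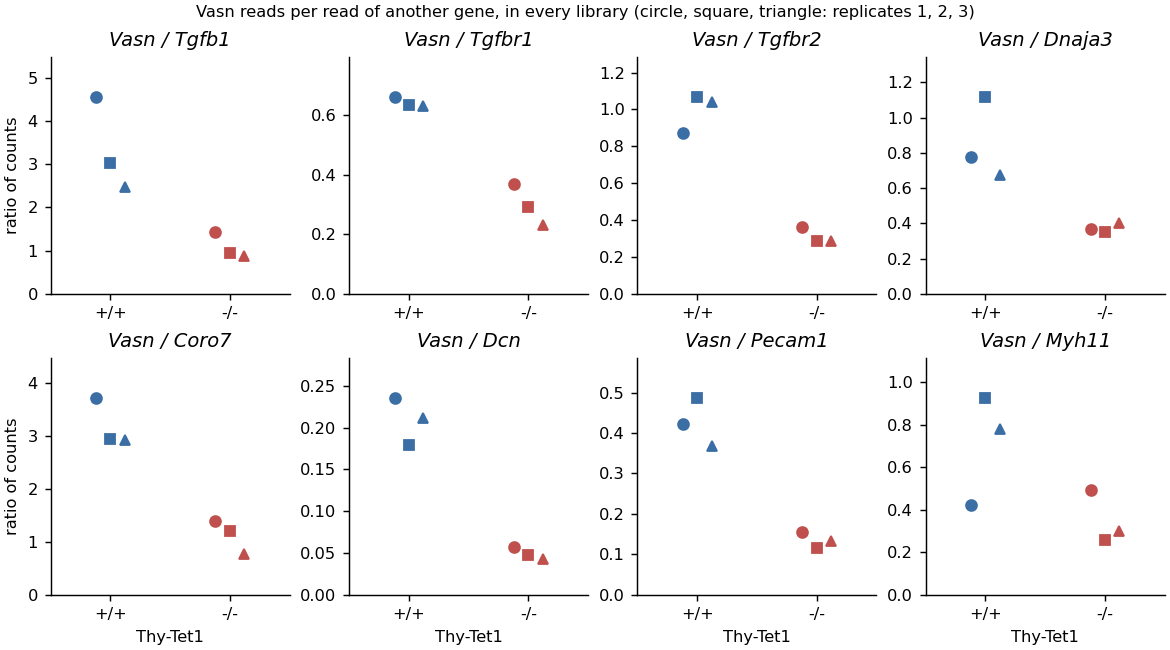
Vasn reads per read of another gene in every library (vertical axes, ratio of counts, from 0), for the 3 Thy-Tet1+/+ libraries in blue and the 3 libraries labelled knockout in red. The ratio to Tgfbr1 is 0.629 to 0.662 in the first group and 0.232 to 0.369 in the second. The only overlap among the 8 ratios is that to Myh11. Vasn was chosen on its fall in these libraries, so a ratio to a gene that changed little is apart by that choice.

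Genes with a pattern like that of Vasn were sought by the root mean square difference of log2 CPM, centred per gene, over the 6 libraries. The nearest 5 were Srrm4, a splicing factor best known from neurons (0.152), Omp, the olfactory marker protein (0.161), Zbtb16, the transcription factor PLZF (0.168), Sesn2, a stress-induced sestrin (0.174), and Gpr157, an orphan receptor (0.174). These 5 had 26.7 to 37.5% of their Thy-Tet1+/+ level in the libraries labelled knockout, which the choice by likeness to Vasn fixes. Omp had 5 counts in each of these libraries and is the least certain of the 5. Among the members, the nearest to Vasn were Tgfbr1 (0.596) and Ltbp1 (0.6), and the farthest was Tgfb2 (1.14).

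The limits asked for a change of more than 1.5-fold, up or down, together with an unadjusted p under 0.05 in the quasi-likelihood test of edgeR. All 10 members had enough counts to be tested. Of the 14143 genes tested, 9.20% were past the limits (5.54% higher and 3.66% lower in the libraries labelled knockout), and 0.113% had an adjusted p under 0.05. Of the 9 members other than Vasn, 1 was past the limits, 0 reached an adjusted p under 0.05 in edgeR or in any alternative, and 2 (22.2%) reached p under 0.05 in edgeR before adjustment, beside 18.9% of all tested genes. The median log2 fold change of the 9 was 0.03, and that of all tested genes was 0.001. Groups without overlap were seen for 3 of the 9 (33.3%), beside 26.8% of all tested genes. The counts of the 9 are close to the shares among all genes.

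**Figure D3:**
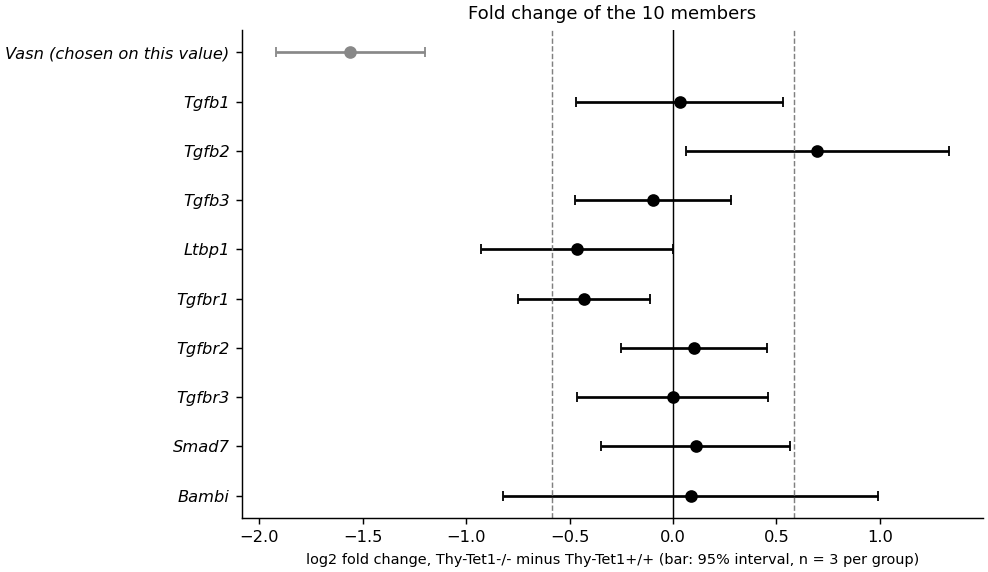
Log2 fold change of each member, libraries labelled knockout minus Thy-Tet1+/+, with the 95% interval from edgeR (n = 3 per group, dashed lines at a 1.5-fold change). Vasn, in grey, was chosen on this value. Of the other 9, only Tgfb2 has its point beyond a limit, and the intervals of Tgfb2 and Tgfbr1 leave out 0.

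Among the ligands, Tgfb2 had the lowest level per kilobase and was the one past the limits. Tgfb2 (NCBI gene 21808), an isoform best known from development, had 26, 56 and 57 counts in Thy-Tet1+/+ and 78, 101 and 94 in the libraries labelled knockout. In CPM these were 3.08, 3.00 and 3.16 against 4.25, 5.98 and 4.78, with no overlap. The Thy-Tet1+/+ libraries were close together and the libraries labelled knockout were all above them. The log2 fold change was 0.70 (standard error 0.27, 1.62-fold higher), with an adjusted p of 0.232 from edgeR with Benjamini-Hochberg adjustment. Leaving out any 1 of the 6 libraries took the call away, with log2 fold changes of 0.54 to 0.78. Without Thy-Tet1-/- replicate 2, the library with most Tgfb2, it was 0.54. Part of the exons of Tgfb2 (124 bases, 2.14%) overlaps an antisense transcript that the table does not list, and whether reads were counted by strand is not given in the sources used here.

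Tgfb1 (NCBI gene 21803), the main isoform of immune and stromal cells, was at 14.6, 22.9 and 22.3 CPM in Thy-Tet1+/+ and 17.3, 22.3 and 21.8 CPM in the libraries labelled knockout. The lowest library of each group was replicate 1 and the remaining 4 lay together, so the groups overlapped. Its log2 fold change was 0.03, with a 95% interval of -0.47 to 0.53. Tgfb3 (NCBI gene 21809), the third isoform, was at 22.5, 17.4 and 19.4 CPM and at 17.05, 21.03 and 17.38 CPM, again with overlap. Its log2 fold change was -0.10 (95% interval -0.47 to 0.28). Its exons overlap 2 transcripts on the opposite strand that the table does not list, by 163 and 257 bases. The sign of both differences turned when single libraries were left out. With total counts alone and with scaling to 10 epithelial genes, which moved the median log2 fold change of all tested genes to 0.19 and 0.39, Tgfb3 stayed at -0.10 and -0.11 relative to that median.

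Per kilobase of exon, Tgfb2 made up 5.28, 5.06 and 5.10% of the 3 ligand genes in Thy-Tet1+/+ and 7.97, 8.86 and 8.03% in the libraries labelled knockout. The share of Tgfb2 was thus higher in every library labelled knockout, although it stayed the smallest of the 3. Tgfb3 held the largest share in every library and Tgfb1 28.7 to 44.5%, both with overlap between groups. With the longest transcript in place of all exons, the share of Tgfb2 was 3.99 to 4.66% and 6.43 to 7.29%, and Tgfb1 held the largest share in 5 of the 6 libraries.

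Ltbp1 (NCBI gene 268977), which stores latent TGF-beta in the matrix, was at 91.6, 140 and 88.9 CPM in Thy-Tet1+/+ and at 73.7, 85.0 and 73.7 CPM in the libraries labelled knockout. The groups were apart by a narrow margin, between 85.0 and 88.9 CPM, and Thy-Tet1+/+ replicate 2 stood above the rest. The log2 fold change of Ltbp1 was -0.46 (standard error 0.20, adjusted p = 0.264 by edgeR), and without Thy-Tet1+/+ replicate 2 it was -0.22. With the libraries scaled to the epithelial genes it was -0.05, or -0.44 relative to the median of all genes.

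Tgfbr1 (NCBI gene 21812), the signalling kinase of the receptor pair, was at 101, 110 and 87.3 CPM in Thy-Tet1+/+ and at 67.1, 71.3 and 82.6 CPM in the libraries labelled knockout. All 3 libraries labelled knockout were lower than all 3 Thy-Tet1+/+ libraries. This was 74.2% of the Thy-Tet1+/+ level, a log2 fold change of -0.43 (standard error 0.13) with an adjusted p of 0.170 by edgeR and of 0.073 by DESeq2. Scaling to the epithelial genes brought Tgfbr1 to -0.05 as well, while the median of all tested genes moved to 0.39, so that relative to that median Tgfbr1 was at -0.43 as before.

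Tgfbr2 (NCBI gene 21813), the ligand-binding kinase, was at 76.3, 65.2 and 53.0 CPM in Thy-Tet1+/+ and at 68.1, 73.2 and 67.0 CPM in the libraries labelled knockout. The libraries labelled knockout all lay within the range of the Thy-Tet1+/+ libraries, and the log2 fold change was 0.10 (95% interval -0.25 to 0.45). Tgfbr3 (NCBI gene 21814), the co-receptor betaglycan, was at 111, 173 and 112 CPM and at 141, 134 and 122 CPM. Its libraries labelled knockout also lay within the range of Thy-Tet1+/+, with a log2 fold change of -0.002 (95% interval -0.46 to 0.46).

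Relative to Tgfbr2, and as a share of the 3 receptor genes, Tgfbr1 was lower in the libraries labelled knockout. It was not past the limits, and 26.8% of all tested genes had groups without overlap. There were 1.32, 1.69 and 1.65 Tgfbr1 reads per Tgfbr2 read in Thy-Tet1+/+ and 0.986, 0.975 and 1.23 in the libraries labelled knockout, without overlap. Per kilobase, Tgfbr1 made up 37.0, 32.8 and 36.1% of the 3 receptor genes in the first group and 25.6, 27.1 and 32.1% in the second, also without overlap. The shares of Tgfbr2 (15.5 to 22.3% and 20.7 to 22.2%) and Tgfbr3 (40.7 to 51.6% and 47.2 to 53.6%) overlapped between groups.

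**Figure D4:**
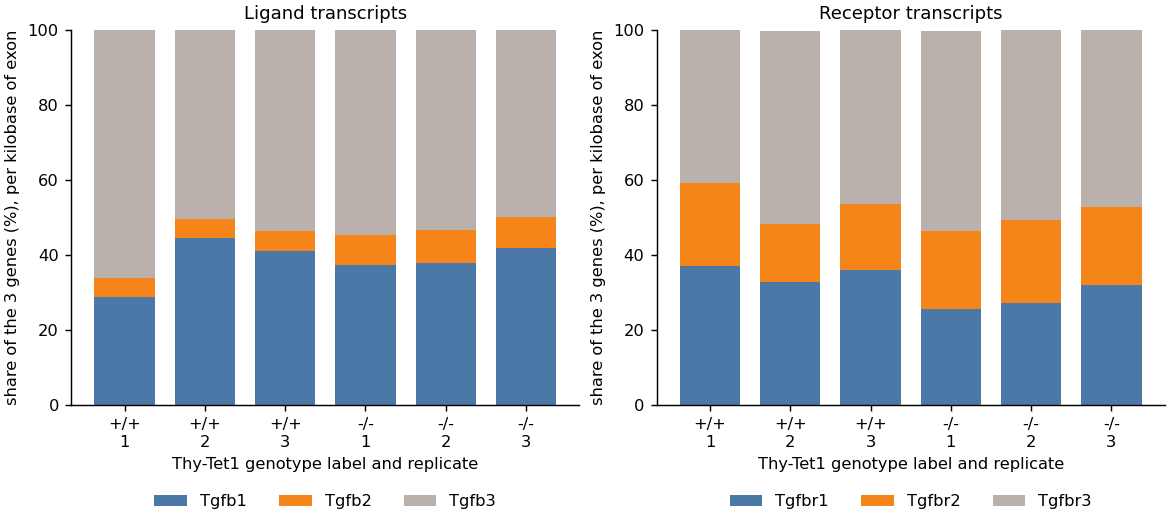
Share of each gene (percent, vertical axes from 0 to 100) among the 3 ligand genes on the left and the 3 receptor genes on the right, per kilobase of exon, with 1 bar per library. The band of Tgfb2 is 5.06 to 5.28% in Thy-Tet1+/+ and 7.97 to 8.86% in the libraries labelled knockout, and the band of Tgfbr1 is 32.8 to 37.0% and 25.6 to 32.1%.

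The inhibitors other than Vasn had overlapping groups. Smad7 (NCBI gene 17131), which is itself induced by TGF-beta in many cells, was at 17.3, 11.5 and 16.4 CPM in Thy-Tet1+/+ and at 16.2, 15.5 and 17.1 CPM in the libraries labelled knockout. Apart from the low Thy-Tet1+/+ replicate 2, its levels lay close together, and the log2 fold change was 0.11 (95% interval -0.35 to 0.57). Bambi (NCBI gene 68010) had 22, 103 and 95 counts and 96, 97 and 66 counts, or 2.61, 5.51 and 5.27 CPM and 5.23, 5.75 and 3.35 CPM. One library of each group was low, and the log2 fold change was 0.09. The wide 95% interval of Bambi, from -0.82 to 0.99, leaves room for changes past the limits in either direction.

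Levels were compared between genes only as CPM per kilobase of exon. In Thy-Tet1+/+ the order was Vasn (21.2 ± 2.58, SD, n = 3), Tgfbr3 (20.2 ± 5.42), Tgfbr1 (15.2 ± 1.75), Ltbp1 (9.99 ± 2.69), Tgfbr2 (7.92 ± 1.42), Tgfb3 (5.85 ± 0.761), Tgfb1 (3.95 ± 0.919), Smad7 (3.34 ± 0.694), Bambi (0.880 ± 0.317) and Tgfb2 (0.532 ± 0.0145). The ranges of the neighbours Vasn and Tgfbr3, Ltbp1 and Tgfbr2, Tgfbr2 and Tgfb3, Tgfb1 and Smad7, and Bambi and Tgfb2 overlapped, so their order is not fixed by these libraries. In the libraries labelled knockout Vasn was at rank 5 with 7.18 ± 0.960 CPM per kilobase (SD, n = 3), behind Tgfbr3 (20.2), Tgfbr1 (11.3), Tgfbr2 (8.48) and Ltbp1 (7.25), and overlapped the last 2 of these. With the length of the longest transcript, Vasn was at rank 1 in Thy-Tet1+/+ (22.5) and at rank 6 in the libraries labelled knockout (7.63). Tgfb1 and Ltbp1, which have 5 and 10 annotated transcripts, moved most with the choice of length.

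Other genes of the pathway were taken from 5 lists of 82 genes, of which 80 could be tested (Inhba and Nog could not). These lists were chosen with earlier results of these data known, so the counts in them are descriptions. Of the 80, 10 were past the limits, 5 higher and 5 lower, which is 12.5% beside the 9.20% of all tested genes. In edgeR 0 of them reached an adjusted p under 0.05 and 19 (23.8%) reached p under 0.05 before adjustment, beside 18.9% of all tested genes. DESeq2 gave 5 with an adjusted p under 0.05, beside 8.43% of all tested genes, among them Dab2, Fn1, Cdkn1a and Junb. The median log2 fold change of the 80 was 0.01. Groups without overlap were seen for 25 (31.2%), beside 26.8% of all genes. The scaling to epithelial genes raised the count past the limits to 23, with 20 higher and 3 lower, beside 21.1% of all tested genes, of whose calls 96.2% were then higher.

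The target genes held 6 of these 10, with 3 in each direction. That was 30.0% of the 20 tested, beside 9.20% of all tested genes. Cdkn1a, which encodes the cell cycle inhibitor p21, was at 47.0, 150 and 106 CPM in Thy-Tet1+/+ and at 24.62, 24.94 and 19.97 CPM in the libraries labelled knockout. It was at 22.9% of its Thy-Tet1+/+ level (log2 fold change -2.12, standard error 0.40, adjusted p = 0.0912 by edgeR), although the Thy-Tet1+/+ libraries differed widely among themselves. It was low in every library labelled knockout and stayed past the limits in 15 of 15 alternatives.

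Junb, an AP-1 transcription factor that many signals induce within minutes, moved the other way. It was at 24.7, 34.1 and 26.0 CPM in Thy-Tet1+/+ and at 64.9, 41.2 and 76.5 CPM in the libraries labelled knockout, a log2 fold change of 1.10 (standard error 0.25, adjusted p = 0.106 by edgeR). It too was past the limits in 15 of 15 alternatives. Besides these, and named after their values were seen, the matrix gene Fn1 (fibronectin) fell to 59.2% of its level (137 ± 27.6 against 81.2 ± 5.67 CPM, SD, n = 3). Its adjusted p was 0.104 by edgeR, and its call was kept in 13 of 15 alternatives, the exceptions being total counts alone (log2 fold change -0.57) and epithelial scaling (-0.35). Snai1 and Snai2, repressors that drive epithelial-mesenchymal transition, were 1.99-fold and 1.77-fold higher at low levels of 1.07 to 3.76 CPM, and their calls were lost without Thy-Tet1+/+ replicate 2 and without Thy-Tet1-/- replicate 1 or 2, and that of Snai2 also without Thy-Tet1+/+ replicate 3. The other 14 target genes, among them the collagens Col1a1, Col1a2 and Col3a1, Acta2 and Ccn2 (listed under its older symbol Ctgf), were not past the limits.

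**Figure D5:**
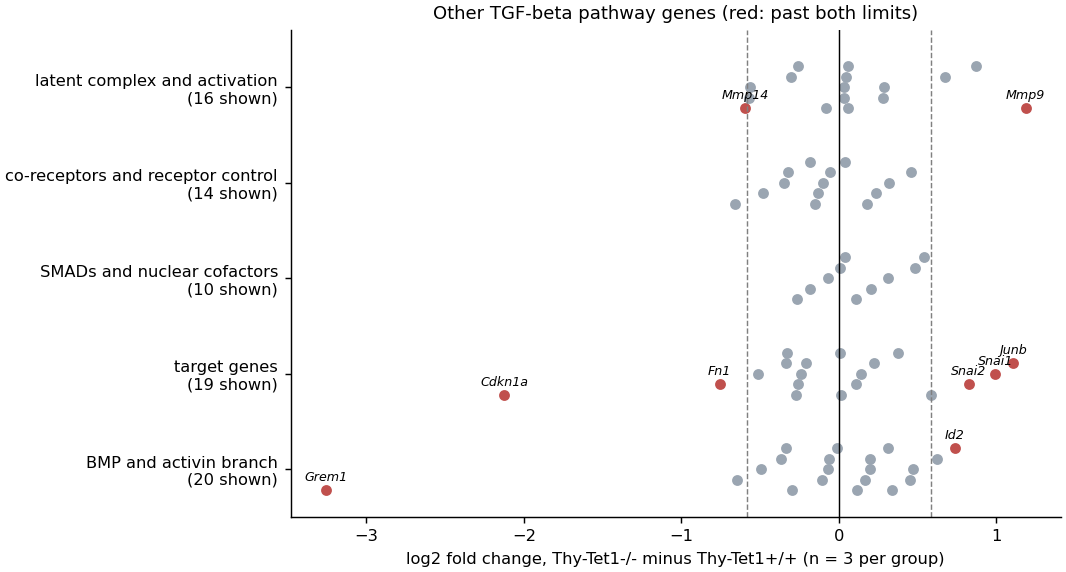
Log2 fold change (horizontal axis, libraries labelled knockout minus Thy-Tet1+/+, n = 3 per group) of 79 pathway genes in 5 lists, with 1 point per gene, red where past both limits and dashed lines at a 1.5-fold change. Of the 9 red points, 5 are target genes, 2 lower and 3 higher, and 2 lists have none.

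Among 16 genes of the latent complex and its activation, 2 were past the limits (12.5%, near the 9.20% of all tested genes). Mmp9, a matrix protease that can release latent TGF-beta, was at 0.949, 0.642 and 1.11 CPM in Thy-Tet1+/+ and at 1.31, 2.19 and 2.64 CPM in the libraries labelled knockout, 2.27-fold higher, from 8 to 52 counts per library. Mmp14, a membrane-bound matrix protease, was at 165, 93.3 and 87.9 CPM and at 77.1, 72.9 and 78.4 CPM, or 66.1% of its level. Thy-Tet1+/+ replicate 1 stood high for Mmp14, and without it the log2 fold change of -0.60 became -0.25. Its call was kept in 3 of 15 alternatives. The call of Mmp9 was lost without Thy-Tet1+/+ replicate 1 or 2 and without Thy-Tet1-/- replicate 2 or 3, where its log2 fold change was 0.95 to 1.22.

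None of the 14 genes for co-receptors and receptor control and none of the 10 for SMADs and nuclear cofactors was past the limits, with 3 genes (21.4%) and 1 gene at an unadjusted p under 0.05 by edgeR, beside 18.9% of all tested genes. The gene with the smallest p of the first list was Dab2, an adaptor that links receptors to endocytosis and SMADs, at 27.2, 29.1 and 31.2 CPM in Thy-Tet1+/+ and 42.1, 40.2 and 37.9 CPM in the libraries labelled knockout. The replicates of Dab2 lay close together and the groups apart, with a log2 fold change of 0.46 (standard error 0.11, adjusted p = 0.117 by edgeR). That of the second list was Smad6, the inhibitory SMAD of the bone morphogenetic protein (BMP) branch, at 18.8, 18.4 and 28.4 CPM and at 33.4, 29.2 and 29.2 CPM. Its groups were apart by less than 1 CPM, with a log2 fold change of 0.48 (standard error 0.20, adjusted p = 0.247 by edgeR).

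In the BMP and activin branch 2 of 20 tested genes were past the limits, a share near the 9.20% of all tested genes. Id2, an inhibitor of differentiation factors and a BMP target, was at 15.9, 18.9 and 30.0 CPM in Thy-Tet1+/+ and at 40.8, 35.8 and 31.9 CPM in the libraries labelled knockout, a log2 fold change of 0.74 (standard error 0.25, adjusted p = 0.190 by edgeR). Its call was lost without Thy-Tet1+/+ replicate 1 or 2 and without Thy-Tet1-/- replicate 1. Grem1, a secreted BMP antagonist, had 24, 777 and 39 counts against 21, 19 and 51, so that only Thy-Tet1+/+ replicate 2 was high, and the groups overlapped. Its call was kept in 9 of 15 alternatives, and was lost without Thy-Tet1+/+ replicate 2 and without Thy-Tet1-/- replicate 1 or 2. Without Thy-Tet1+/+ replicate 2 the log2 fold change of Grem1 went from -3.26 to -0.62.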

How the data were processed

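For 6 thyroid libraries the authors deposited the unnormalized count of reads on each of 21878 genes, from RNA prepared by poly(A) selection with a directional kit. The submitters' processing notes name the build mm10. The aligner and counting program are not given in the sources used here. The table held 0 unassigned columns, and 27 symbols that had become dates were restored from gene identifiers. Samples were grouped by their genotype labels, and the libraries came from separate mice.

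Counts were tested in R 4.3.3 with edgeR 4.0.16 (filterByExpr, TMM, quasi-likelihood test, group as the only term, Benjamini-Hochberg adjustment over 14143 genes). The limits are those of the study's own RNA-seq comparison. CPM used TMM-scaled totals, and log2 CPM a prior count of 2. The biological coefficient of variation was 0.327. Exon lengths and overlaps came from GENCODE M21 and promoter sequences from RefSeq. Alternatives used DESeq2 1.42.0, limma 3.58.1 (voom), 3 other scalings, 2 other filters, a skeletal muscle covariate, the replicate block, and the removal of single libraries. The code was tested on simulated data.

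The members, lists and named genes were chosen with earlier results of these data known. Named genes were the members, Tet1, Dnaja3, Coro7, the 5 genes most like Vasn, and from each pathway list up to 3 genes with the largest fold change past the limits, or the gene with the smallest p where none passed. Marker lists other than those described in the text had overlapping groups. The values of 1 target gene are not reported here, although it is in the counts.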

Additional observations from a re-analysis of the deposited data

How the results depend on the processing

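Vasn, Ltbp1, Tgfbr1 and Tgfb2 kept their direction in all 15 alternatives, and Vasn stayed between -1.69 and -1.17 on the log2 scale. Vasn was chosen on its fall in these same libraries, so its range is a description and not support for that fall. The call of Tgfb2 was lost with the replicate block (log2 fold change 0.69), so that 0 of the other 9 members were past the limits there, and 0 to 0 with 1 library left out. Members without overlap between groups were 4 of 10 with TMM scaling and 4 with RLE size factors. They were 3 with total counts alone, without Tgfbr1 and Ltbp1, and 5 with epithelial scaling. The 6 members other than Vasn, Ltbp1, Tgfbr1 and Tgfb2 had overlapping groups with TMM scaling. They changed sign as follows, and apart from the scalings the cause was not tested. Tgfb1 was at -0.017 with limma-voom and -0.15 to 0.14 with 1 library left out. Tgfb3 was at 0.084 with total counts alone, 0.28 with epithelial scaling, 0.04 with the skeletal muscle covariate and -0.20 to 0.003 with 1 library left out. Tgfbr3 was at 0.008 with RLE size factors and with DESeq2, 0.18 with total counts alone, 0.41 with epithelial scaling, 0.030 with limma-voom, 0.028 with the replicate block, 0.011 with at least 10 counts in every library and -0.11 to 0.24 with 1 library left out. Total counts alone and epithelial scaling moved the median of all genes to 0.19 and 0.39. Relative to that median, Tgfb3 stayed at -0.10 and -0.11, and Tgfbr3 was at -0.004 and 0.02. The changes of sign of Tgfb3 in these 2 scalings thus came with the shift of all genes. So did that of Tgfbr3 with total counts alone, while with epithelial scaling Tgfbr3 stayed positive relative to the median. Bambi was at -0.01 with limma-voom and -0.18 to 0.27 with 1 library left out, Tgfbr2 was then at -0.027 to 0.23 and Smad7 at -0.055 to 0.22.

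The pathway genes past the limits (10) were 23 with epithelial scaling, 6 with the skeletal muscle covariate and 6 to 12 with 1 library left out, and those with an adjusted p under 0.05 (0) were 7 with epithelial scaling and 5 with DESeq2. Of all tested genes, 1301 were past the limits, 60.2% of them higher, and 2989 with epithelial scaling (96.2% higher). With total counts alone 86.1% of the calls were higher. The 16 genes with an adjusted p under 0.05 were 8 with total counts alone, 850 with epithelial scaling, 1192 with DESeq2, 25 with at least 10 counts in every library, 0 with the skeletal muscle covariate (1657 at an unadjusted p under 0.05), 0 with the replicate block (1900) and 0 to 1 with 1 library left out. The level per kilobase of Tgfb1 and Ltbp1, over all libraries, moved to 7.85 and 13.8 with the longest transcript.

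Same-numbered libraries did not deviate together (r = -0.17, -0.37 and -0.19 across genes, which are not independent replicates). Deviations were taken from the mean of each group, so the mean of 0.12 for other pairs is tied to these values and is no separate comparison. The replicate numbers were not taken as pairs, and a call lost under the block is not read as a weaker effect. At 22 to 103 counts for Bambi and 26 to 101 for Tgfb2, counting error adds to the spread between mice. With 3 mice per group, a p that misses the limit does not show equal levels.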
